A study of Homo sapiens with 58 samples.

Results

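The genes described here are 33 genes of cholesterol and fatty acid synthesis, their regulators and the transporters that remove sterol from cells, chosen by symbol out of the 19084 genes of the count table. They comprise 7 genes of the mevalonate arm (ACAT2, HMGCS1, MVK, PMVK, MVD, IDI1 and FDPS) and 9 of the sterol arm (FDFT1, SQLE, LSS, CYP51A1, TM7SF2, NSDHL, HSD17B7, EBP and DHCR7). A further 5 are sensors and regulators (SREBF1, SREBF2, SCAP, INSIG1 and INSIG2), and 9 belong to fatty acid synthesis, elongation and desaturation (ACLY, ACSS2, ACACA, ACACB, FASN, ELOVL6, SCD, FADS1 and FADS2). The last 3 serve sterol transport and efflux (STARD4, ABCA1 and ABCG1). All 33 were in the table, and all 33 passed the filter on low counts in both sets of libraries.

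RNA was sequenced from H1, an established human embryonic stem cell line, as the cells were taken stepwise towards somites, the paired blocks of paraxial mesoderm that form muscle, vertebrae and dermis. The 58 bulk libraries fall into 2 sets: 12 libraries of 4 successive days with 3 replicates each, and a course of 46 libraries labelled presomitic mesoderm, every 30 min from 30 to 690 min (23 time points, 2 replicates each). Day 0 was undifferentiated embryonic stem cells in E8 medium. Day 1 was mesendoderm, obtained with activin A at 100 ng/mL and the GSK3 inhibitor CHIR99021 at 3 µM. Day 2 was presomitic mesoderm, cultured on an E6 base with the TGF-beta receptor inhibitor A83-01 at 2 µM, CHIR99021 at 3 µM, FGF2 at 100 ng/mL and the BMP antagonist NOGGIN at 100 ng/mL. Day 3 was somite cells on an E6 base with the MEK inhibitor PD0325901 at 1 µM, the Wnt pathway inhibitor IWR1 at 2.5 µM, A83-01 at 2 µM and NOGGIN at 100 ng/mL. For the course, the labels used here give neither the medium nor the event from which minutes were counted. All libraries come from 1 cell line, and the labels do not say whether replicates were separate cultures, so p-values measure the spread between libraries, which may be technical.

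Cells build cholesterol from acetyl-CoA through mevalonate, farnesyl diphosphate and squalene, which is closed into lanosterol and then trimmed into cholesterol. Fatty acids are built from the same acetyl-CoA and are then lengthened and desaturated. Both routes are driven by the SREBP transcription factors, made from SREBF1 and SREBF2, which wait in the endoplasmic reticulum bound to the escort SCAP. When sterol is plentiful the INSIG proteins hold SCAP back, and oxysterols activate the liver X receptors, which raise the efflux pumps ABCA1 and ABCG1 and also SREBF1.

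SREBP proteins bind sterol regulatory elements, often beside a CCAAT box bound by NF-Y, and 4 promoter stretches with such letters are shown. Only the stretch of SREBF2 holds a match to the sterol element used here beside a CCAAT box. Those of SCD, HMGCS1 and NSDHL hold CCAAT boxes alone. They come from the RefSeq promoter table (GRCh38.p14), which covers 250 bases before to 50 after each gene's start and matched 28 of the 33 genes with 39 promoters. SREBF2 encodes the SREBP of cholesterol synthesis, SCD the enzyme that desaturates stearate, HMGCS1 the cytosolic HMG-CoA synthase and NSDHL a sterol dehydrogenase. Each stretch is printed 5′ to 3′ on the gene's own strand, with CCAAT boxes (CCAAT, or ATTGG where the box lies on the other strand) and a sterol element (TCACNCCAC) in capitals.
SREBF2 (chr22:41832965-41833014, plus strand): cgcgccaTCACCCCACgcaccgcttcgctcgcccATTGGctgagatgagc
SCD (chr10:100346998-100347057, plus strand): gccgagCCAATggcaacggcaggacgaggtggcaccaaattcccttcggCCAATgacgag
HMGCS1 (chr5:43313503-43313572, minus strand): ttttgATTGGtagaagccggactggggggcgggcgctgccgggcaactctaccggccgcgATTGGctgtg
NSDHL (chrX:152830918-152830987, plus strand): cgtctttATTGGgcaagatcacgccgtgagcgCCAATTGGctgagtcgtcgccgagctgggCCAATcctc
On both strands of these windows, CCAAT was found in 23 of the 39 promoters (59.0%), against 34.6% of the 35116 promoters in the table. The sterol element TCACNCCAC was found in 1 of the 39, that of SREBF2, against 1.13% of all promoters. The E-box CACGTG was found in 4 (10.3%, against 7.26%). A pair of AGGTCA half-sites with 4 bases between them, the layout bound by liver X receptors, was found in 0 (0.0199% of all promoters). A match describes letters in a window and no more.

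The deposited counts summed to 3.16 to 7.81 M (1 M being 1e6) per daily library and to 2.53 to 8.96 M per course library, with the lowest daily depth at Day 2 (3.16 to 3.60 M). Daily marker values are given as counts-per-million (CPM) without a TMM factor. All other CPM, those of the course windows included, are normalised, that is, scaled by edgeR's TMM factors. Of the stage markers, 6 pluripotency markers summed to 4980 to 5430 CPM at Day 0 and 974 to 1090 at Day 3. The sums were 1030 to 1100 CPM for 5 mesendoderm markers at Day 1 and 711 to 918 CPM for 6 somite markers at Day 3. The 6 presomitic mesoderm markers summed to 226 to 530 CPM at Day 2, overlapping with Day 3 (219 to 282), and to 712 to 1350 in the course windows. Most of the Day 3 sum was DLL1 (173 to 247 CPM, against 33.9 to 75.3 at Day 2). RSPO3 (127 to 325 at Day 2, 7.97 to 17.5 at Day 3), TBX6, MSGN1 and DLL3 were lower at Day 3 without overlap, while HES7 overlapped. Markers of visceral endoderm and hepatocytes, cell types with high lipid synthesis and secretion, summed to at most 3.35 CPM over 6 genes on any day, with HNF4A at 0 in all 12 libraries. Markers of definitive endoderm summed to 377 to 575 CPM over 5 genes at Day 1, against 8.77 to 95.2 CPM on the other days. Most of the Day 1 sum was CER1 (345 to 535 CPM), while SOX17 (0 to 1.68) and FOXA2 (0.23 to 3.7) were low. At Day 2 most of it was CXCR4 (67.2 to 91.2), a receptor that is not confined to endoderm. Neural markers summed to 499 to 923 CPM over 4 genes at Day 2, with none at 0, against 139 to 546 on the other days. The part of these other cells in the differences between days was not tested, and in bulk RNA fewer cells of a type and less RNA per cell cannot be told apart.

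Over the 4 days the clearest changes were in sterol efflux and in fatty acid synthesis and desaturation: ABCA1 and ABCG1 fell to their lowest level at Day 1 and had their highest mean at Day 3, while FASN, SCD and FADS2 fell from Day 1 to Day 2 and rose again by Day 3. By edgeR's quasi-likelihood test with Benjamini-Hochberg adjustment, at an adjusted p under 0.05, 24 of the 33 genes differed over the days, against 43.6% of the 12765 genes tested. Of these 24 calls, 17 held whichever library was left out, and those of HMGCS1, MVD, LSS, EBP, SCAP, INSIG1 and ACSS2 did not (adjusted p up to 0.140 for SCAP, which was lost in 10 of 12 cases). The mean level was highest at Day 1 for 16 of the 33 and lowest at Day 2 for 17, among them 6 of the 9 fatty acid genes and 4 of the 5 regulators. These orders are by mean CPM and were not all beyond the spread of the replicates. The share of all genes tested with the same order was not counted, so they are not shown to be particular to these genes.

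**Figure D1:**
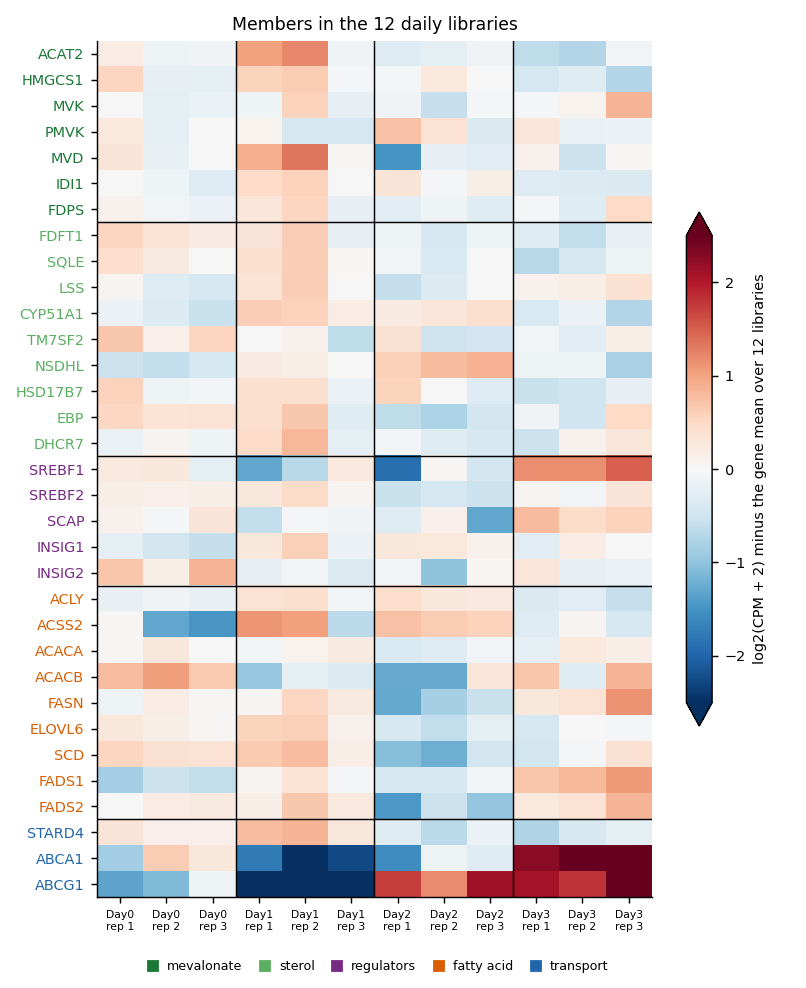
Normalised expression of the 33 genes in the 12 daily libraries, as log2(CPM + 2) minus each gene's mean over the 12, with genes grouped and coloured by role and colours saturating at 2.5 either way. ABCA1 and ABCG1 have the widest span, with ABCG1 between 0 and 0.392 CPM in the Day 1 libraries and between 60.6 and 118 CPM at Day 3.

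From Day 0 to Day 1, 3 of the 33 genes rose and 2 fell (7.29% of all genes called, 3.69% higher and 3.6% lower). From Day 1 to Day 2, 2 rose and 10 fell (20.1% of all genes called, 8.67% higher and 11.5% lower). From Day 2 to Day 3, 8 rose and 4 fell (22.6% of all genes called, 11.6% higher and 11% lower). Between Day 0 and Day 3 directly, 4 were higher and 3 lower at Day 3 (21.5% of all genes called, 9.97% higher and 11.5% lower). These comparisons share libraries with one another and are not separate evidence.

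The median log2 difference of the 33 genes was 0.25 for Day 1 against Day 0 (−0.01 over all genes tested), −0.34 for Day 2 against Day 1 (−0.04) and 0.30 for Day 3 against Day 2 (0.08). Expressed as transcripts-per-million (TPM) without TMM scaling, the median of all genes shifted to −0.12, −0.23 and 0.33 in the same order. The share of calls over all genes that were higher went from 50.6% to 39.7%, from 43.1% to 21.5% and from 51.3% to 78.7%. Relative to the median of all genes the 33 genes' median stayed at 0.26 (TMM) and 0.25 (TPM), −0.29 and −0.28, and 0.22 and 0.21. The TMM factors were lowest at Day 2 (0.897 to 0.926, against 0.987 to 1.096 on the other days), and their part in the low levels of that day was not tested.

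The position of a library within its day was often shared by many of the genes. Day 1 replicate 2 was the highest of its day for 25 of the 33 and Day 1 replicate 3 the lowest for 25, while Day 3 replicate 3 was the highest for 20. How many of all genes tested share these positions was not counted. Correlations of log2 CPM between replicates over all tested genes were lowest at Day 2 (0.875 to 0.894) and 0.922 to 0.962 on the other days.

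**Figure D2:**
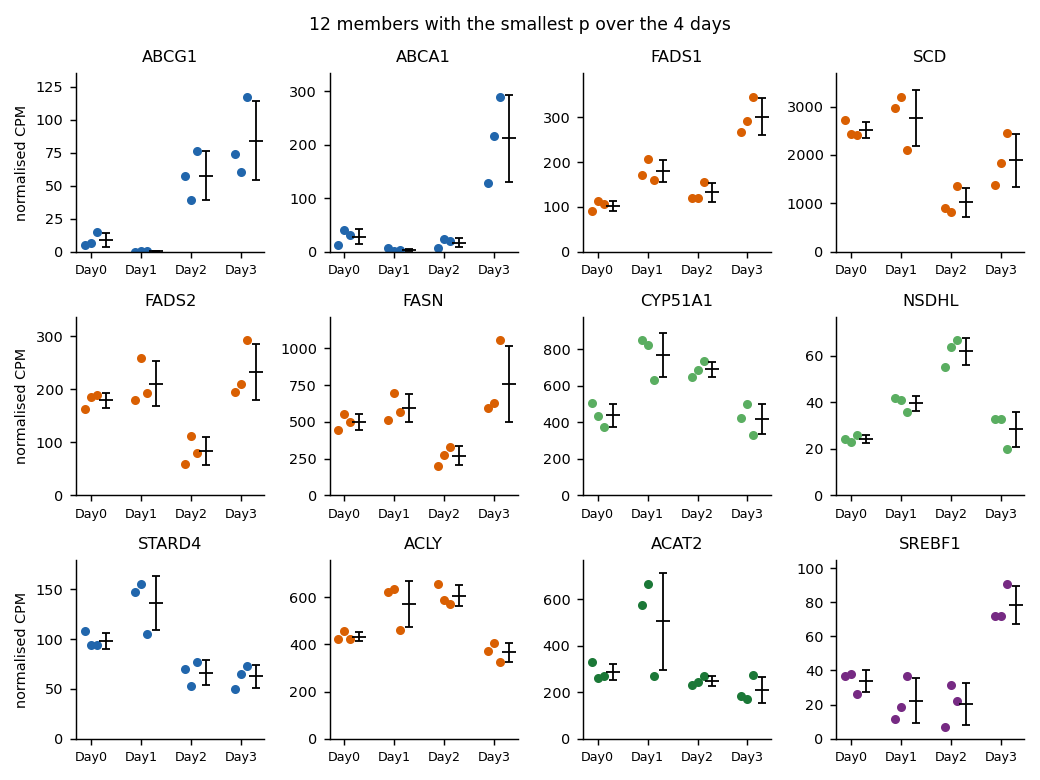
Normalised CPM in each of the 3 libraries per day (points) with their mean and SD (bars) on axes from 0, for the 12 genes with the smallest adjusted p over the 4 days. FASN lies at 201 to 331 CPM at Day 2, below every library of the other days (446 to 1057), and ABCA1 at 128 to 289.9 at Day 3, above every other library.

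Of the mevalonate arm, which makes the isoprenoid precursors of sterols, HMGCS1 was the most abundant of the 33 genes per length on every day, at 1359 ± 417, 1561 ± 337, 1104 ± 97.2 and 897 ± 107 TPM (SD, n = 3) from Day 0 to Day 3. Its CPM were 2669, 1589 and 1574 at Day 0 and 2688, 2831 and 1767 at Day 1. It had 1797, 2186 and 1827 at Day 2 and 1349, 1474 and 1102 at Day 3. Every Day 3 library lay below every library of the earlier days, while those earlier days overlapped, and no pair of days compared passed the test.

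ACAT2, the cytosolic thiolase that joins acetyl-CoA units, had 328, 262 and 269.8 CPM at Day 0 and 576, 667 and 269.6 at Day 1. It had 229.8, 242 and 271 at Day 2 and 185, 172 and 273 at Day 3. It was high in replicates 1 and 2 of Day 1 and not in replicate 3, so that Day 1 and Day 2 overlapped. The fall to Day 2 was −1.03 on the log2 scale (SE 0.257, edgeR adjusted p = 0.0110), and it was not called when Day 1 replicate 1 or replicate 2 was left out (adjusted p 0.0502 to 0.0775). ACAT2 shares exon bases with SOD2 and TCP1 in the GENCODE v29 annotation, and whether counting used strand is not given, so its level is uncertain.

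MVD, which decarboxylates mevalonate diphosphate, fell from 91.7, 127 and 49.9 CPM at Day 1 to 16.2, 42.0 and 39.6 at Day 2 (log2 difference −1.46, SE 0.354, edgeR adjusted p = 0.00930), without overlap. Without Day 1 replicate 2 its adjusted p was 0.0687. IDI1, the isomerase of isopentenyl diphosphate, fell from 307, 239.8 and 271 CPM at Day 2 to 195, 191 and 189.8 at Day 3 (log2 difference −0.51, SE 0.167, edgeR adjusted p = 0.0388). That call was lost when any of 5 of the 12 libraries was left out (Day 0 replicate 2, Day 2 replicate 1 or any Day 3 library, adjusted p 0.0542 to 0.106), under limma on log2(TPM + 1) (0.316) and when only Days 2 and 3 were fitted (0.0905). The kinases MVK (6.00 to 19.5 CPM over the 12 libraries) and PMVK (17.8 to 43.2) and farnesyl diphosphate synthase FDPS (263 to 477) passed no test between days.

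In the sterol arm, CYP51A1, the lanosterol demethylase, had the smallest adjusted p over the days (edgeR, 0.000718). It had 503, 436 and 374 CPM at Day 0 and 851, 823 and 629.9 at Day 1. It had 649.8, 687 and 734 at Day 2 and 422, 499 and 333 at Day 3. Every library of Days 1 and 2 was above every library of Days 0 and 3. It rose 1.75-fold to Day 1 (log2 difference 0.81, SE 0.168, edgeR adjusted p = 0.00602) and fell from Day 2 to Day 3 by 0.72 on the log2 scale (SE 0.168, edgeR adjusted p = 0.00622). CYP51A1 has 3 named pseudogenes in GENCODE, whose reads could be shared with it. The same limit holds for FDPS (8 named pseudogenes), HSD17B7 (2), SCD (1) and FADS2 (1).

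NSDHL, a dehydrogenase that takes part in stripping methyl groups from the sterol, had 24.1, 22.7 and 26.0 CPM at Day 0 and 41.7, 40.7 and 35.8 at Day 1. It had 55.2, 63.6 and 66.7 at Day 2 and 32.5, 32.8 and 19.7 at Day 3. Its Day 2 libraries were the highest of all 12. The fall to Day 3 was 2.19-fold (log2 difference −1.13, SE 0.235, edgeR adjusted p = 0.00314).

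Of the other sterol enzymes, LSS, which closes the sterol rings, fell from 185, 225 and 145 CPM at Day 1 to 95.5, 114 and 144 at Day 2 (log2 difference −0.65, SE 0.202, edgeR adjusted p = 0.0324). EBP, the sterol isomerase, fell from 122, 148 and 74.6 CPM to 58.4, 52.3 and 66.4 over the same step (log2 difference −0.96, SE 0.261, edgeR adjusted p = 0.0174). The lowest Day 1 library, replicate 3, was close to the highest Day 2 library, with 145 against 144 CPM for LSS and 74.6 against 66.4 for EBP. LSS lost its call without Day 1 replicate 1 or 2 or Day 2 replicate 1 or 2 (adjusted p 0.0850 to 0.171), and EBP without Day 1 replicate 1 or 2 or Day 2 replicate 2 (0.0577 to 0.106).

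FDFT1, squalene synthase, was lower at Day 3 (286, 231 and 311 CPM) than at Day 0 (509, 445 and 405), by 0.72 on the log2 scale (log2 difference −0.72, SE 0.190, edgeR adjusted p = 0.0124). SQLE, the squalene epoxidase, was lower at Day 3 (154, 186 and 230.4 CPM) than at Day 0 (335, 296 and 253), with a log2 difference of −0.63 (SE 0.185, edgeR adjusted p = 0.0220). Neither pair of groups overlapped, but FDFT1 was not called without Day 0 replicate 1 or Day 3 replicate 2 (0.0522 to 0.0589), nor SQLE without replicate 1 or 2 of either day (0.0611 to 0.112). The reductase TM7SF2 (4.70 to 14.6 CPM over the 12 libraries), the ketoreductase HSD17B7 (19.8 to 45.8) and DHCR7 (38.8 to 104), the last reductase of the pathway, passed no test between days.

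Among the regulators, SREBF1 and SREBF2 were both higher at Day 3 than at Day 2. SREBF1, whose product favours fatty acid genes, had 37.0, 38.1 and 26.2 CPM at Day 0 and 11.4, 18.4 and 37.0 at Day 1. It had 6.98, 31.8 and 22.2 at Day 2 and 72.1, 71.7 and 90.9 at Day 3. The Day 3 libraries were the highest of all 12, whereas Days 0 to 2 overlapped. The rise from Day 2 was 3.86-fold (log2 difference 1.95, SE 0.437, edgeR adjusted p = 0.00510). Against Day 0 the log2 difference was 1.21 (SE 0.415, edgeR adjusted p = 0.0462), a call lost when any of 7 of the 12 libraries was left out (each library of Days 0 and 3, and Day 1 replicate 2, adjusted p 0.0581 to 0.160) and under limma on log2(TPM + 1) (0.101). SREBF1 shares exon bases with RAI1, so its counts may be mixed.

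SREBF2 had 82.9, 81.6 and 83.2 CPM at Day 0 and 91.5, 104 and 78.1 at Day 1. It had 50.5, 54.4 and 51.0 at Day 2 and 78.9, 71.3 and 94.3 at Day 3. All 3 Day 2 libraries lay below the other 9, which overlapped. The fall to Day 2 was 0.81 on the log2 scale (log2 difference −0.81, SE 0.178, edgeR adjusted p = 0.00513) and the rise to Day 3 was 0.65 (SE 0.177, edgeR adjusted p = 0.0154). The rise was not called without Day 2 replicate 1 or Day 3 replicate 3 (adjusted p 0.0511 to 0.0707), nor when only the libraries of Days 2 and 3 were fitted (0.0750).

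SCAP, the escort of the SREBP proteins, had 30.4, 27.4 and 35.7 CPM at Day 0 and 17.7, 27.5 and 26.0 at Day 1. It had 21.9, 30.7 and 10.2 at Day 2 and 49.8, 39.3 and 42.5 at Day 3. Its rise to Day 3 was 2.10-fold (log2 difference 1.07, SE 0.330, edgeR adjusted p = 0.0286), with the Day 3 libraries above the other 9. The call was lost without Day 2 replicate 1 or 3 or Day 3 replicate 1 or 3 (adjusted p 0.0589 to 0.0894), and when only Days 2 and 3 were fitted (0.0886).

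INSIG1, a retention protein that is itself an SREBP target, had 123, 105 and 95.5 CPM at Day 0 and 179, 220.4 and 132 at Day 1. It had 179, 176 and 157 at Day 2 and 120.1, 166 and 147 at Day 3. It was above every Day 0 library at Day 1, 1.64-fold higher (log2 difference 0.72, SE 0.191, edgeR adjusted p = 0.0297), but not called without Day 0 replicate 2 or 3 or Day 1 replicate 1 or 2 (adjusted p 0.0982 to 0.173), nor under limma on log2(TPM + 1) (0.0838). INSIG2, the second retention protein, had 47.5, 31.7 and 52.7 CPM at Day 0 and 24.4, 27.0 and 22.1 at Day 1. It had 27.0, 13.1 and 29.4 at Day 2 and 35.8, 24.5 and 25.4 at Day 3. The Day 0 libraries were the highest apart from 1 at Day 3, and the difference between Day 1 and Day 0 (log2 difference −0.84, edgeR adjusted p = 0.109) was not called.

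**Figure D3:**
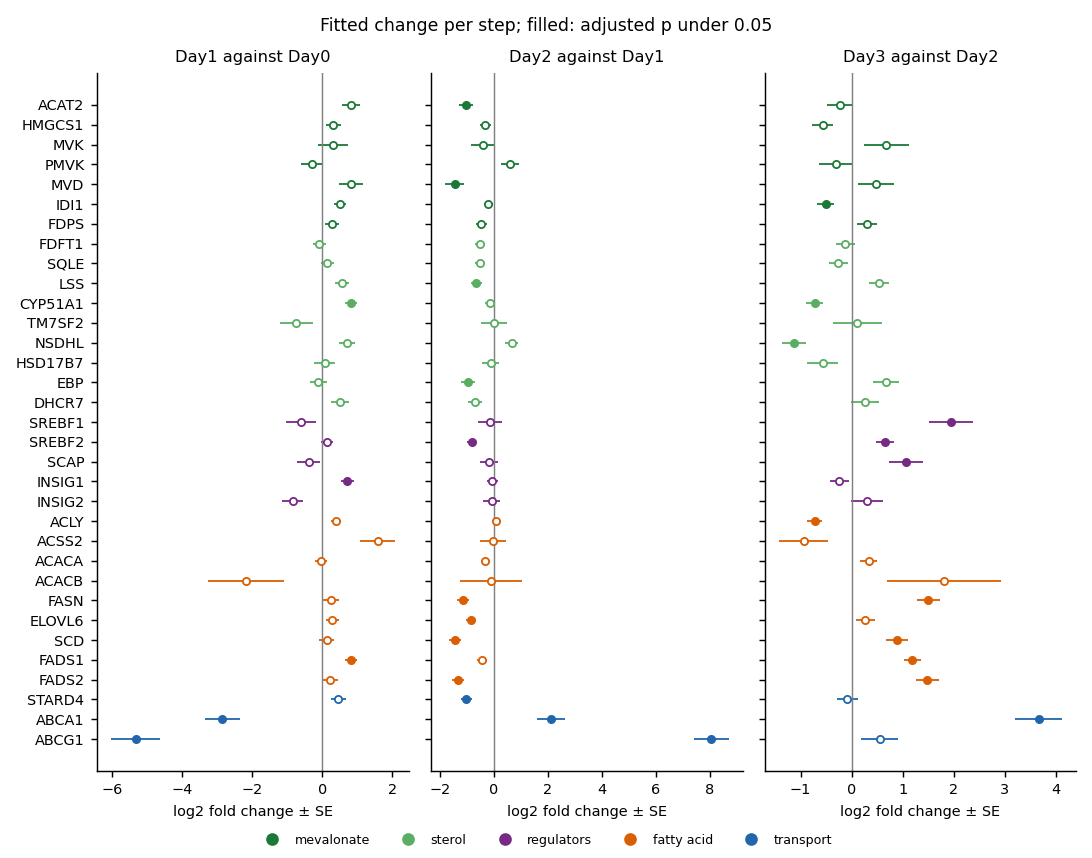
Log2 difference with its standard error for each of the 33 genes in the 3 steps between successive days, from edgeR's fit, with filled points for an adjusted p under 0.05, a separate scale in each panel and ABCG1 values that depend on the prior count. Most genes lie below 0 in the step from Day 1 to Day 2 (28 of 33, with a median of −0.04 over all genes tested). The fatty acid genes FASN, FADS1, FADS2 and SCD lie above 0 in the step from Day 2 to Day 3.

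Of the 9 fatty acid genes, 4 fell from Day 1 to Day 2, against 11.5% of all genes tested. In the step from Day 2 to Day 3, 4 rose and 1 fell, against 11.6% and 11% of all genes. FASN, the fatty acid synthase, had 446, 553 and 497 CPM at Day 0 and 513, 699.9 and 568 at Day 1. It had 201, 273 and 331 at Day 2 and 592, 629 and 1057 at Day 3. It fell 2.21-fold to Day 2 (log2 difference −1.15, SE 0.220, edgeR adjusted p = 0.00219) and rose 2.83-fold to Day 3 (log2 difference 1.501, SE 0.222, edgeR adjusted p = 0.000279). Days 0 and 1 overlapped.

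SCD, the desaturase that makes monounsaturated fatty acids, had 2713, 2440.2 and 2405 CPM at Day 0 and 2962, 3207 and 2108 at Day 1. It had 896, 811 and 1365 at Day 2 and 1371, 1842 and 2462 at Day 3. Per length it was the second most abundant of the 33 genes at Days 0, 1 and 3 and ranked 4 at Day 2, at 1116 ± 74.2, 1122 ± 209, 373 ± 128 and 832 ± 284 TPM (SD, n = 3). It fell 2.69-fold to Day 2 (log2 difference −1.43, SE 0.219, edgeR adjusted p = 0.000434) and rose 1.85-fold to Day 3 (log2 difference 0.89, SE 0.216, edgeR adjusted p = 0.00851). The highest Day 2 and the lowest Day 3 library nearly touched, and without Day 2 replicate 2 the rise had an adjusted p of 0.0508.

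FADS2 and FADS1 are the desaturases of polyunsaturated fatty acids, and both rose from Day 2 to Day 3. FADS2 had 162, 186 and 189 CPM at Day 0 and 179, 258 and 194 at Day 1. It had 59.0, 111 and 80.5 at Day 2 and 196, 209 and 293 at Day 3. The 3 Day 2 libraries were the lowest, and Day 1 overlapped with Days 0 and 3. It fell 2.52-fold to Day 2 (log2 difference −1.33, SE 0.225, edgeR adjusted p = 0.000871) and rose 2.79-fold to Day 3 (log2 difference 1.48, SE 0.226, edgeR adjusted p = 0.000368). FADS1 had 89.8, 112 and 106 CPM at Day 0 and 172, 208 and 161 at Day 1. It had 121, 120.4 and 156 at Day 2 and 267, 291 and 346 at Day 3. It rose 1.76-fold to Day 1 (log2 difference 0.81, SE 0.169, edgeR adjusted p = 0.00626, but 0.0529 under limma on log2(TPM + 0.1)) and 2.28-fold from Day 2 to Day 3 (log2 difference 1.19, SE 0.171, edgeR adjusted p = 0.000219). It was 2.94-fold higher at Day 3 than at Day 0 (log2 difference 1.56, SE 0.171, edgeR adjusted p = 6.45e-06). FADS1 and FADS2 share exon bases with each other, so reads there could be counted for either.

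ELOVL6, which lengthens palmitate, fell from 166, 172 and 122 CPM at Day 1 to 85.1, 73.5 and 95.8 at Day 2 (log2 difference −0.85, SE 0.187, edgeR adjusted p = 0.00513), without overlap. ACLY, which releases acetyl-CoA from citrate, had 422, 455 and 422 CPM at Day 0 and 622, 634 and 460.2 at Day 1. It had 658, 590.2 and 573 at Day 2 and 374, 405 and 325 at Day 3. It fell 1.65-fold from Day 2 to Day 3 (log2 difference −0.72, SE 0.146, edgeR adjusted p = 0.00268), opposite in sign to FASN, SCD and FADS2 in the same step. ACSS2, the acetyl-CoA synthetase, had 5.34 to 18.6 CPM at Day 0 and 10.8 to 41.4 at Day 1, and passed no test between successive days. ACACA, the main acetyl-CoA carboxylase, stayed within 197 to 316 CPM over the 12 libraries with no test passed. Its relative ACACB was at most 7.89 CPM and had a count of 0 in 2 of the 3 Day 2 libraries, where a count of 0 allows up to 1.06 CPM.

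Of the transport genes, STARD4, a carrier of cholesterol between membranes, had 108, 93.8 and 93.9 CPM at Day 0 and 147, 156 and 105 at Day 1. It had 69.5, 52.6 and 77.2 at Day 2 and 50.3, 64.6 and 73.1 at Day 3. It fell 2.04-fold to Day 2 (log2 difference −1.03, SE 0.208, edgeR adjusted p = 0.00299), with every library of Days 0 and 1 above every later one. Against Day 0 the Day 3 level was lower by 0.65 on the log2 scale (log2 difference −0.65, SE 0.204, edgeR adjusted p = 0.0308), a call lost without any Day 0 library or Day 3 replicate 1 or 2 (adjusted p 0.0622 to 0.141).

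ABCA1, which hands cholesterol to apolipoproteins, had 12.9, 40.1 and 31.2 CPM at Day 0 and 6.05, 2.18 and 3.72 at Day 1. It had 7.30, 22.96 and 19.8 at Day 2 and 128, 217 and 289.9 at Day 3. It was lowest in the 3 Day 1 libraries and highest in the 3 Day 3 libraries, and no successive days overlapped. It fell 7.18-fold to Day 1 (log2 difference −2.84, SE 0.496, edgeR adjusted p = 0.00165) and rose 4.28-fold to Day 2 (log2 difference 2.10, SE 0.519, edgeR adjusted p = 0.0103). It rose a further 12.7-fold to Day 3 (log2 difference 3.67, SE 0.460, edgeR adjusted p = 7.16e-05). The rise to Day 2 was not called without Day 1 replicate 2 (adjusted p = 0.0621) or under limma on log2(TPM + 1) (0.109). Day 3 was 7.58-fold above Day 0 (log2 difference 2.92, SE 0.430, edgeR adjusted p = 0.000127).

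ABCG1, which passes cholesterol to lipoprotein particles, had 5.25, 6.38 and 14.6 CPM at Day 0 and 0, 0.168 and 0.392 at Day 1. It had 57.5, 38.9 and 76.0 at Day 2 and 74.3, 60.6 and 118 at Day 3. The 3 Day 1 libraries held 3 counts in all, against 164 at Day 0 and 544 at Day 2. Scaled for library size, Day 0 was 43.7 times Day 1 (95% counting interval 14.7 to 214) and Day 2 was 270.0 times Day 1 (92.0 to 1310), and both differences were called (edgeR adjusted p = 0.000104 and 1.08e-06). These intervals cover counting error only. Day 3 was 9.69-fold above Day 0 (log2 difference 3.28, SE 0.402, edgeR adjusted p = 1.99e-05), while Days 2 and 3 overlapped. In TPM, ABCA1 went from 6.52 at Day 0 to 0.847, 3.13 and 48.5, and ABCG1 from 7.23 to 0.143, 39.2 and 68.4 (means, n = 3).

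For context, 57 other genes of the same routes were all tested. From Day 0 to Day 1, 7 of them rose and 1 fell (14% of the 57, against 7.29% of all genes). LBR, a sterol reductase of the nuclear envelope, rose from 186 to 433.5 CPM (log2 difference 1.22, edgeR adjusted p = 0.000617). MYLIP, a liver X receptor target that marks lipoprotein receptors for breakdown, fell from 62.5 to 11.1 CPM (log2 difference −2.495, edgeR adjusted p = 1.95e-05). From Day 1 to Day 2, 2 rose and 12 fell (24.6%, against 20.1%), among them 6 of the 7 other sterol enzymes and binding proteins. LBR had a log2 difference of −1.497 (edgeR adjusted p = 0.000103) and MID1IP1, an activator of acetyl-CoA carboxylase, of −1.90 (0.000499). From Day 2 to Day 3, 2 rose and 4 fell (10.5%, against 22.6%), and MYLIP rose from 7.49 to 62.6 CPM (log2 difference 3.07, edgeR adjusted p = 6.79e-06). ACSL4, a ligase of polyunsaturated fatty acids, fell from 278 to 128 (−1.12, 0.000548), and RNF139, a ubiquitin ligase of the sterol-sensing machinery, fell by 0.77 (log2 difference −0.77, adjusted p = 0.0108). Against Day 0, 7 were higher and 8 lower at Day 3 (26.3%, against 21.5%), with SOAT1, which esterifies cholesterol, going from 13.5 to 47.7 CPM (log2 difference 1.82, edgeR adjusted p = 8.36e-05). MYLIP, like ABCA1, was lower at Day 1 and higher at Day 3 than on the day before. The step from Day 1 to Day 2 differed, with MYLIP means of 11.1 and 7.49 CPM, whereas ABCA1 was higher at Day 2 than at Day 1.

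During the presomitic mesoderm course, ABCA1 and SCD increased, HSD17B7 decreased and CYP51A1 and SREBF1 were highest at intermediate times. Over the 23 time points, 19 of the 33 genes differed by edgeR's quasi-likelihood test (adjusted p under 0.05), against 28.9% of the 13653 genes tested. Of these 19 calls, 12 held whichever of 26 libraries was left out, and those of ACAT2, NSDHL, EBP, DHCR7, INSIG1, ELOVL6 and FADS2 did not (NSDHL in 18 of 26 cases, adjusted p up to 0.125). For the comparisons, 3 time points of 2 libraries each were joined into windows of 6 libraries, at 30 to 90, 120 to 180, 300 to 360 and 630 to 690 min. Each time point kept its own term in the fit, so window p-values rest on the spread between the 2 libraries of a time point. The spread between the time points of a window does not enter them. Between the first and the second window 2 of the 33 genes rose and 4 fell (9.59% of all genes called, 6.29% higher and 3.3% lower). Between the second and the third, 10 rose and 2 fell (20.8% called, 10% higher and 10.8% lower). From the third to the fourth, 2 rose and 7 fell (12.9% called, 6.08% higher and 6.86% lower). From the first to the fourth, 7 rose and 8 fell (25.2% called, 12.6% in each direction).

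In the course libraries the 5 markers of definitive endoderm summed to 86.1 to 182 CPM at 30 to 90 min, 110 to 142 at 120 to 180 min, 175 to 225 at 300 to 360 min and 268 to 410 at 630 to 690 min. Most of that sum was CXCR4 (197 to 337 CPM in the last window), a receptor that is not confined to endoderm, while SOX17 was at 0 in all libraries of the first 2 windows and both SOX17 and FOXA2 stayed under 1 CPM in all 4. The 4 neural markers summed to 68.4 to 223, 194 to 408, 96.7 to 133 and 102 to 184 CPM in the 4 windows. None was at 0 in every library of a window. The 5 proliferation markers summed to 1560 to 1650, 1550 to 1720, 1660 to 1750 and 1250 to 1380 CPM. From the first window to the last, mesendoderm markers went from 92.4 to 168 CPM to 7.64 to 15.5 CPM. The 6 markers of visceral endoderm and hepatocytes summed to at most 4.55 CPM. The part of these shifts in the differences between windows was not tested.

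Under TPM scaling the share of higher calls over all genes went from 65.6% to 39.4% in the step to 120 to 180 min, and from 48.2% to 63.9% in the step to 300 to 360 min, where the median of all genes shifted to 0.11. Relative to that median the 33 genes' median in the step to 300 to 360 min was 0.14 (TMM) and 0.16 (TPM).

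**Figure D4:**
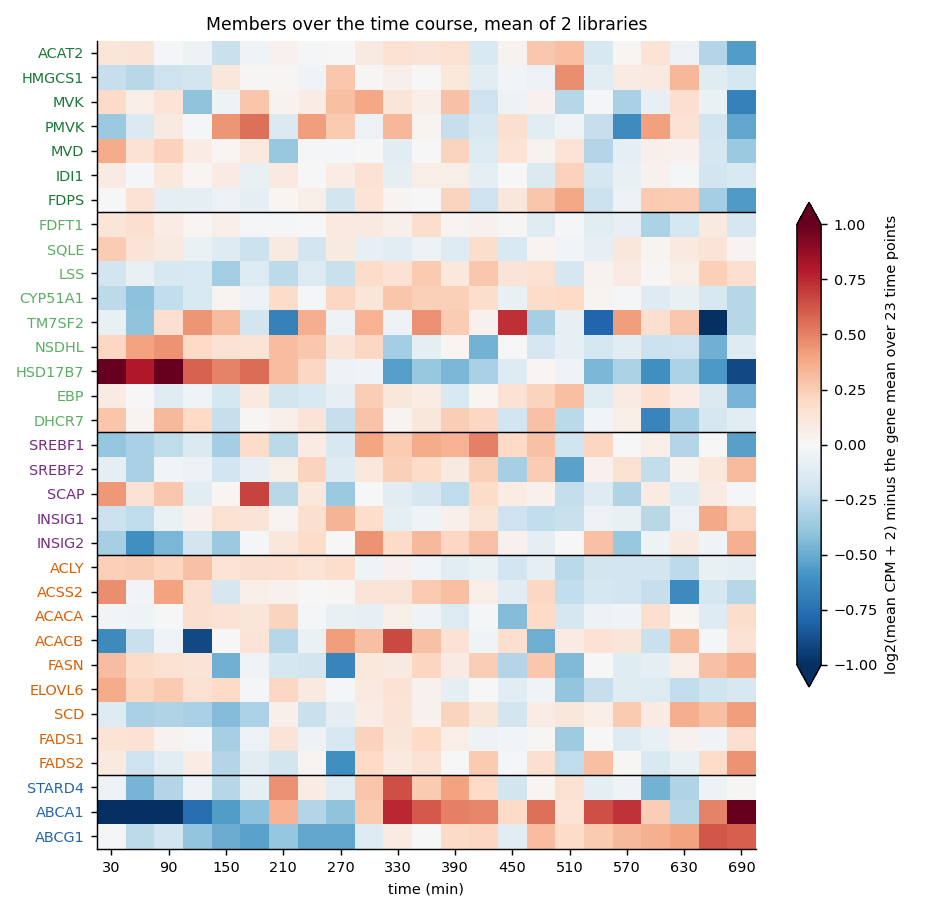
Mean of the 2 libraries at each of the 23 time points for the 33 genes, as log2(CPM + 2) minus each gene's mean over the course, with genes grouped and coloured by role and colours saturating at 1 either way. ABCA1 goes from its lowest mean of 13.1 CPM at 60 min to its highest of 103.5 CPM at 690 min, and HSD17B7 from 82.0 CPM at 30 min to 17.8 CPM at 690 min.

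ABCA1 had the smallest p of the 33 genes over the course. Its lowest, median and highest CPM were 10.04, 16.6 and 21.0 at 30 to 90 min and 23.8, 31.5 and 36.1 at 120 to 180 min. It had 43.0, 72.4 and 84.9 at 300 to 360 min and 36.3, 66.8 and 120.4 at 630 to 690 min. The first 3 windows did not overlap with one another, whereas the last overlapped with the third. It rose by 0.96 on the log2 scale to the second window (SE 0.168, edgeR adjusted p = 6.87e-05) and 2.24-fold to the third (log2 difference 1.17, SE 0.155, edgeR adjusted p = 1.23e-07). It was 4.08-fold higher in the last window than in the first (log2 difference 2.03, SE 0.162, edgeR adjusted p = 2.55e-14). Within the last window the 2 libraries at 630 min had 36.3 and 39.4 CPM and those at 690 min 86.6 and 120.4.

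ABCG1 had a lowest, median and highest of 132, 153 and 172 CPM at 30 to 90 min and 96.2, 122 and 143 at 120 to 180 min. It had 142, 174 and 189 at 300 to 360 min and 176, 264 and 281 at 630 to 690 min. It was 1.63-fold higher in the last window than in the first (log2 difference 0.70, SE 0.104, edgeR adjusted p = 5.16e-07), without overlap. It rose from the second window to the third (log2 difference 0.46, SE 0.106, edgeR adjusted p = 0.00100) and from the third to the fourth (0.56, SE 0.104, adjusted p = 8.08e-05). The earlier fall (log2 difference −0.32, SE 0.106, edgeR adjusted p = 0.0452) was lost when any of 9 of the 12 libraries was left out (0.0620 to 0.202). STARD4 rose to the third window (medians 60.9 and 88.8 CPM, log2 difference 0.55, SE 0.138, edgeR adjusted p = 0.00237). It fell again to the fourth (median 61.9, log2 difference −0.52, SE 0.136, edgeR adjusted p = 0.00599), with an adjusted p of 0.0574 without 360 min replicate 2.

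**Figure D5:**
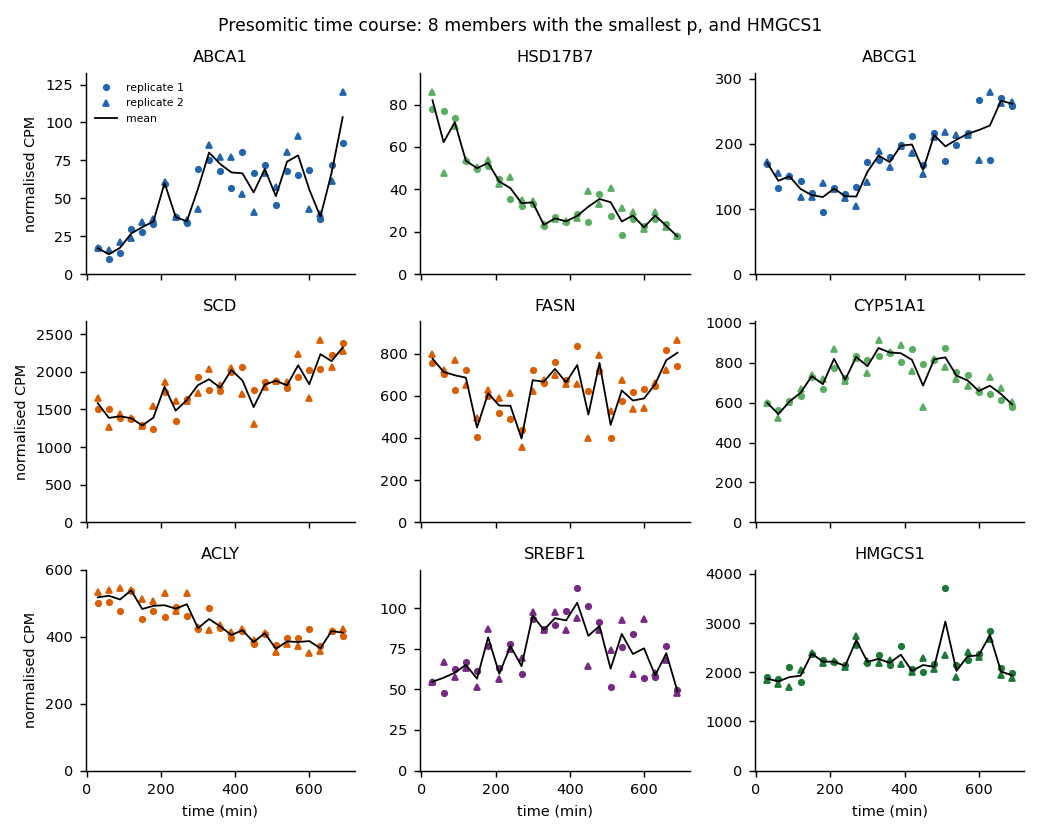
Normalised CPM in each course library (points) with the mean of the 2 libraries (line) against time in minutes, for the 8 genes with the smallest adjusted p over the 23 time points and for HMGCS1. SCD goes from a mean of 1289 CPM at 150 min to 2325 CPM at 690 min, and SREBF1 from its highest mean of 103.3 CPM at 420 min to its lowest of 48.8 CPM at 690 min.

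In the sterol arm, HSD17B7, the ketoreductase that works with NSDHL, had a lowest, median and highest of 47.7, 75.2 and 86.2 CPM at 30 to 90 min and 49.6, 52.2 and 54.0 at 120 to 180 min. It had 22.9, 26.3 and 34.6 at 300 to 360 min and 17.8, 22.8 and 29.5 at 630 to 690 min. Both late windows lay wholly below both early ones. It was 3.19-fold lower in the last window than in the first (log2 difference −1.67, SE 0.142, edgeR adjusted p = 1.67e-13), and the fall from the second to the third window had a log2 difference of −0.92 (SE 0.142, edgeR adjusted p = 2.5e-06). The fall from the first to the second (log2 difference −0.46, SE 0.136, edgeR adjusted p = 0.0216) was lost when any of 6 of the 12 libraries was left out (0.0501 to 0.152). HSD17B7 has 2 named pseudogenes, so its counts may be shared with them. NSDHL was also lower in the last window (27.5, 30.6 and 40.4 CPM) than in the first (44.7, 46.0 and 64.6), with a log2 difference of −0.66 (SE 0.150, edgeR adjusted p = 0.000677).

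CYP51A1 rose and fell: its lowest, median and highest were 524, 599 and 609.7 CPM at 30 to 90 min and 632, 693 and 739 at 120 to 180 min. It had 751, 841 and 916 at 300 to 360 min and 579, 628 and 729 at 630 to 690 min. The first 3 windows did not overlap, and the last lay below the third. The rise to the third window was 0.27 on the log2 scale (SE 0.073, edgeR adjusted p = 0.00472) and the fall after it was −0.39 (SE 0.073, edgeR adjusted p = 0.000112). The rise from the first to the second window (log2 difference 0.25, SE 0.073, edgeR adjusted p = 0.0217) was lost when any of 10 of the 12 libraries was left out (0.05003 to 0.0879), with no filter on low counts (0.0837) and under limma on log2(TPM + 1) (0.267).

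LSS rose from 179, 217 and 223 CPM (lowest, median and highest) at 120 to 180 min to 260.1, 269.6 and 322 at 300 to 360 min, without overlap (log2 difference 0.41, SE 0.078, edgeR adjusted p = 9.01e-05). It was still higher in the last window than in the first (log2 difference 0.30, SE 0.078, edgeR adjusted p = 0.00294). SQLE fell from the first to the second window, from a median of 270.2 to 217 CPM (log2 difference −0.30, SE 0.081, edgeR adjusted p = 0.0124), and had an adjusted p of 0.0575 without 120 min replicate 2. EBP fell after the third window (medians 182 and 149.5 CPM, log2 difference −0.33, SE 0.088, edgeR adjusted p = 0.00835), but not without 660 min replicate 2 (0.0546). DHCR7 fell from the first window to the last (medians 95.6 and 71.5 CPM, log2 difference −0.43, SE 0.133, edgeR adjusted p = 0.0134), a call lost without 30 min replicate 2, 60 min replicate 1 or 630 min replicate 1 (0.0544 to 0.101) and under limma on log2(TPM + 1) (0.111).

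In the mevalonate arm, HMGCS1 had a lowest, median and highest of 1704, 1852 and 2100.4 CPM at 30 to 90 min and 1812, 2217 and 2385 at 120 to 180 min. It had 2146, 2214 and 2353 at 300 to 360 min and 1889, 2032 and 2847 at 630 to 690 min. The windows overlapped, and its rise from the first to the last (log2 difference 0.25, SE 0.077, edgeR adjusted p = 0.0142) was lost without 90 min replicate 2 (0.0832). Its highest library was 510 min replicate 1, at 3718 CPM, against 2346 in replicate 2 of that time. ACAT2 was lower in the last window than in the third (medians 321 and 424 CPM, log2 difference −0.43, SE 0.095, edgeR adjusted p = 0.000953) and than in the first (log2 difference −0.38, SE 0.095, edgeR adjusted p = 0.00189). MVD was lower in the last than in the first (medians 85.6 and 112 CPM, log2 difference −0.42, SE 0.112, edgeR adjusted p = 0.00359).

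Of the fatty acid genes, SCD had a lowest, median and highest of 1268, 1472 and 1656 CPM at 30 to 90 min and 1235, 1334 and 1549.6 at 120 to 180 min. It had 1718, 1797 and 2040.1 at 300 to 360 min and 2043, 2249 and 2428 at 630 to 690 min. Each of the late windows lay above all earlier ones. It was 1.53-fold higher in the last window than in the first (log2 difference 0.61, SE 0.080, edgeR adjusted p = 2.38e-08). It rose to the third window (log2 difference 0.44, SE 0.080, edgeR adjusted p = 3.73e-05) and again to the fourth (0.28, SE 0.079, adjusted p = 0.0116, but 0.0639 under limma on log2(TPM + 1)).

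ACLY moved the other way, from 477, 519.9 and 546 CPM at 30 to 90 min and 452, 510.5 and 541 at 120 to 180 min to 420.0, 428 and 486 at 300 to 360 min and 358, 409 and 424 at 630 to 690 min. It was 1.30-fold lower in the last window than in the first (log2 difference −0.38, SE 0.072, edgeR adjusted p = 4.74e-05). The fall to the third window (log2 difference −0.21, SE 0.072, edgeR adjusted p = 0.0319) was lost when any of 10 of the 12 libraries was left out (0.0518 to 0.157), with no filter (0.124) and under limma on log2(TPM + 1) (0.385). ELOVL6 was lower in the last window than in the first (medians 83.2 and 115 CPM, log2 difference −0.50, SE 0.101, edgeR adjusted p = 0.000147), as was ACSS2 (medians 22.5 and 34.4 CPM, log2 difference −0.68, SE 0.166, edgeR adjusted p = 0.00134).

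FASN varied from time to time with no steady direction: its lowest, median and highest were 627, 739 and 797 CPM at 30 to 90 min and 406, 612 and 721 at 120 to 180 min. It had 624, 686 and 759 at 300 to 360 min and 649, 731 and 866 at 630 to 690 min. The windows overlapped. The fall to the second (log2 difference −0.34, SE 0.095, edgeR adjusted p = 0.0127) was lost without 90 min replicate 2, 120 min replicate 2 or 150 min replicate 1 (0.0581 to 0.0674). The rise to the third (0.26, SE 0.095, edgeR adjusted p = 0.0387) was lost when any of 8 of the 12 libraries was left out (0.0521 to 0.153) or with DESeq2's size factors (0.0531). FASN was low in both libraries at 270 min (438 and 357 CPM), in 450 min replicate 2 (399) and in 510 min replicate 1 (398). The last of these libraries had the lowest TMM factor of the course (0.872, of a range up to 1.08) and also the lowest SREBF2 (29.6 CPM) and the highest HMGCS1, and the part of that factor in these values was not tested.

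Among the regulators in the course, SREBF1 rose and fell: its lowest, median and highest were 47.6, 56.2 and 66.7 CPM at 30 to 90 min and 51.7, 65.1 and 87.4 at 120 to 180 min. It had 86.3, 91.6 and 97.8 at 300 to 360 min and 47.9, 58.6 and 76.5 at 630 to 690 min. The third window lay wholly above the last and overlapped with the second by 1 library. The rise was 0.45 on the log2 scale (SE 0.124, edgeR adjusted p = 0.00586) and the fall after it was −0.63 (SE 0.123, edgeR adjusted p = 0.000182). SREBF2 had medians of 66.2, 62.3, 81.0 and 81.0 CPM in the 4 windows and SCAP of 44.8, 35.2, 31.7 and 35.9, and neither passed a test between windows.

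INSIG2 was higher in the last window (27.2, 29.5 and 45.2 CPM) than in the first (15.7, 21.0 and 25.2), with a log2 difference of 0.65 (SE 0.192, edgeR adjusted p = 0.00862). Its adjusted p was 0.0504 to 0.0512 without 90 min replicate 2 or 690 min replicate 1. INSIG1 was higher too, with 154, 183 and 190.5 CPM at 30 to 90 min and 172, 219 and 294 at 630 to 690 min (log2 difference 0.36, SE 0.103, edgeR adjusted p = 0.00716), although these windows overlapped.

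The series is about a synchronised segmentation clock, so a rhythm was fitted as a sine and cosine of 300 min over the 46 libraries. A quadratic trend over time was fitted beside them. By edgeR's quasi-likelihood test, 0 of the 33 genes had a rhythm at an adjusted p under 0.05, against 0.132% of all genes tested, and 7 of the 33 had an unadjusted p under 0.05, against 12.6% of all genes. The lowest adjusted p were those of LSS (0.0580, peak to trough 0.31 on the log2 scale) and FASN (0.0759, 0.41). DESeq2 called both and limma on log2(TPM + 1) called 0. A period of 270 min gave 0 and one of 330 min gave 3 (LSS, HSD17B7 and FASN). With 1 library left out at a time, LSS was called in 26 of 46 fits and FASN in 3, and neither in 20. On simulated counts with a peak to trough of 2-fold, 90.0% of such rhythms were recovered at this size; the changes measured here were smaller.

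Of the 57 other genes of these routes, 10 were higher and 8 lower in the last window than in the first (31.6% of the 57, against 25.2% of all genes). VLDLR, a receptor of triglyceride-rich lipoproteins, was higher (log2 difference 1.56, edgeR adjusted p = 3.28e-08), as was SOAT1 (0.93, 4.54e-08), and SCARB1, the receptor of high-density lipoprotein, was lower (−1.80, 1.8e-07). In the step to 300 to 360 min, ACSL4 fell by 0.80 (log2 difference −0.80, edgeR adjusted p = 6.19e-08), SOAT1 rose (0.78, 4.69e-06) and FBXW7, the ubiquitin ligase that removes active SREBP, fell (−0.66, 0.000267). VLDLR rose in the last step, from 12.6 to 34.4 CPM (log2 difference 1.45, edgeR adjusted p = 4.4e-07).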

How the data were processed

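The LM-seq tables hold expected counts and TPM for 19084 genes, both deposited by the authors. The submitters' processing notes name Bowtie 0.12.2, hg19 and mm8. The sources used here give no counter, annotation or strand setting, so reads of overlapping genes may be mixed. The deposited expected counts were rounded and tested with edgeR 4.0.16 (R 4.3.3; TMM, filterByExpr, quasi-likelihood, Benjamini-Hochberg) in one fit per set, on 12765 genes of the 12 daily libraries and 13653 of the 46 course libraries. CPM are normalised counts-per-million, except those of the daily markers, which carry no TMM factor. TPM, scaled by the authors, served for levels between genes and for limma 3.58.1. DESeq2 1.42.0, other scalings, no filter, a replicate block and leaving out each library were alternatives.

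Every gene is named; library values are given for the 12 genes of smallest p over the days, the 8 over the course and the regulators, and at most 3 called genes per comparison among 57 others, 1 of which is not reported here by name. The genes and lists were chosen with earlier results of these data known. Libraries with the same replicate number did not clearly deviate together over all genes (correlations of −0.113 to 0.167 for days and −0.0977 to 0.0887 for the course). With 2 libraries per time point, course deviations mirror each other by construction. The labels do not say whether a number stands for a shared culture or batch, so pairing was not settled. On simulated counts, 41.0% of 2-fold and 85.0% of 4-fold changes were recovered for Day 2 against Day 1. Promoters came from RefSeq (GRCh38.p14) and gene overlaps from GENCODE v29; no coordinate of the counting build was used.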

Additional observations from a re-analysis of the deposited data

Results flagged for a closer look

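In windows of 6 course libraries, 1 library stood far from the others in 9 of 132 groups (33 genes in 4 windows), where chance alone gives about 1 in 20 groups. The number flagged is not far from that share, and the rule treats the 3 time points of a window as alike. High libraries were MVK at 41.3 CPM in 300 min replicate 2 (next 29.9), DHCR7 at 109 CPM (next 87.4) and INSIG1 at 261 CPM (next 201) in 300 min replicate 1, and ACLY at 486 CPM in 330 min replicate 1 (next 436). ACACA was high by a small margin, at 172 CPM in 90 min replicate 2 (next 166). Low libraries were SREBF2 at 45.6 CPM in 60 min replicate 2 (next 63.0), ELOVL6 at 76.3 CPM in 180 min replicate 1 (next 99.9), FADS1 at 230.1 CPM in 90 min replicate 1 (next 257) and ABCG1 at 176 CPM in 630 min replicate 1 (next 259). DHCR7 and INSIG1 were both high in 300 min replicate 1. The daily groups have 3 libraries each and were not examined in this way.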

How the results depend on the processing

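No called difference between a pair of days or windows changed its sign under the alternatives given here. Counts, and calls of any difference over the days or time points, have no sign that could reverse. Called single differences were kept in 121 of 121 cases under DESeq2's test, 119 with its size factors, 118 with no filter on low counts, 118 with the replicate number as a block, 106 under limma on log2(TPM + 1) and, for the days, 53 of 60 under limma on log2(TPM + 0.1) and 33 of 36 when only the libraries of a pair of days were fitted. Leaving out single libraries kept 1526 of 1718. The replicate block, for numbers not known to pair the libraries, gave 23 of the 33 genes over the days (24 without it) and 17 over the time points (19 without it). It lost SCAP over the days (edgeR adjusted p = 0.0516) and NSDHL (0.0585) and DHCR7 (0.0519) over the time points, and the cause of these losses was not tested.

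Counts that moved by over 1.5 times were as follows, and the cause was not tested. Genes higher at Day 1 than at Day 0 (3) numbered 5 with no filter, 6 under DESeq2, 1 under limma on log2(TPM + 0.1) and 9 when only those days were fitted, when 4 were lower instead of 2. Genes higher at Day 2 than at Day 1 (2) numbered 1 under limma with either pseudocount. In the step to 120 to 180 min, the 2 higher genes were 1 with no filter, 4 under DESeq2 and 1 under limma. In the step to 300 to 360 min, the 2 lower genes were 1 with no filter and 1 under limma, and in the step to 630 to 690 min the 2 higher genes were 1 under limma. The rhythm count of 0 was 1 with no filter, 2 under DESeq2 and 3 with a period of 330 min. It was 1 with a linear trend in place of the quadratic one.

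When single libraries were left out, genes higher at Day 1 than at Day 0 ranged from 2 to 6 (6 without Day 1 replicate 3), genes higher at Day 2 than at Day 1 from 1 to 3, and genes lower at Day 2 from 6 (without Day 1 replicate 2) to 14 (without Day 1 replicate 3). Genes lower at Day 3 than at Day 0 ranged from 0 (without Day 0 replicate 1 or Day 3 replicate 2) to 4. Genes higher at 120 to 180 min ranged from 1 to 2 and lower ones from 0 (without 120 min replicate 2) to 4. Genes lower at 300 to 360 min ranged from 1 to 2, and rhythmic genes from 0 to 2. For the test over 23 time points, 26 of the 46 libraries were left out in turn, with 15 to 21 genes called, and 20 were not run. Depth limits the daily comparisons most at Day 2, where a count of 0 allows up to 1.06 CPM.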
